A study of Mus musculus with 18 samples.

Results

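Assembly factors of the respiratory chain are proteins that help to build complexes I to V of the inner mitochondrial membrane without staying in the finished complexes. The set held 43 named genes, taken by symbol from the 46983 rows of the deposited TPM table (TPM, the share of a library's transcripts that a gene takes, corrected for transcript length and scaled to a fixed total). All 43 were found once each and all passed the filter on low values that 12111 genes passed. By the complex they serve, 13 belong to complex I, 4 to complex II, 6 to complex III, 17 to complex IV and 3 to complex V, the ATP synthase.
The transcripts were measured in poly(A) RNA of skeletal muscle from adult male mice on a C57Bl6/J background, by single-read sequencing. MKO mice lack the coactivator PGC-1β in skeletal muscle, where Cre under the human skeletal actin promoter acts on a floxed Ppargc1b allele. WT mice carry the same floxed allele without Cre, so that all 4 groups share it. Food was withdrawn for 24 h from 5 MKO and 4 WT mice (fasted), and 5 MKO and 4 WT mice had food (fed). The labels call the replicates biological and the muscle quadriceps, while the methods of the study name Gastrocnemius.
Each complex needs its own helpers. Complex I is built from modules: TIMMDC1 and the group formed by NDUFAF1, ECSIT, ACAD9 and TMEM126B build part of the membrane arm, NDUFAF3 and NDUFAF4 attend the module that reduces ubiquinone, and NDUFAF2 joins late. SDHAF proteins bring flavin and iron-sulfur clusters into complex II, and BCS1L with LYRM7 deliver the Rieske iron-sulfur protein to complex III. Complex IV needs heme A (COX10, COX15), copper (COX17, SCO1, SCO2, COX11, COA6) and helpers of its mitochondrially made subunits (TACO1, COX14, COA3, COX20). ATPAF1 and ATPAF2 hold the catalytic subunits of the ATP synthase before they join. Skeletal muscle is rich in these complexes, and PGC-1 coactivators are known as inducers of their subunits through transcription factors such as NRF1 and the estrogen-related receptors.
Promoters of the members were searched for the recognition letters of such factors, as 20 of these genes were lower after fasting in both genotypes (counts and values below). RefSeq held a window around the start site, most of it before the start (GRCm38.p6), for 37 of the 43 members. The letters CGCNTGCG, the core to which NRF1 binds, stood on either strand in 9 of these 37 windows (24.3%), against 19.9% of the 8968 windows of tested genes and 9.22% of 27025 windows in all. The letters AANATGGC, a core of the factor YY1, also stood in 9 of 37 (24.3%), against 10.3% of tested genes and 6.96% of all windows. The letters TNAAGGTCA, bound by estrogen-related receptors, stood in 0 of 37, against 0.859% of tested genes. Only Uqcc2 held both NRF1 and YY1 letters, which did not overlap there. These matches are descriptions of letters and not measured binding. The stretches around the NRF1 letters (in capitals) are shown for the 4 members with values below whose match lay wholly before the start. That of Sdhaf3 spans the start. Each stretch has 60 bases of the strand that reads like the transcript.
Uqcc2 (chr17:27133905-27133964, minus strand): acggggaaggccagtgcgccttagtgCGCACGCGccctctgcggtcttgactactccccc
Coa5 (chr1:37430104-37430163, minus strand): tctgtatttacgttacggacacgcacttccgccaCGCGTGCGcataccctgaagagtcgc
Ndufaf4 (chr4:24897945-24898004, plus strand): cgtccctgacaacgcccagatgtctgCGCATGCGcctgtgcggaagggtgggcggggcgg
Ndufaf2 (chr13:108158816-108158875, minus strand): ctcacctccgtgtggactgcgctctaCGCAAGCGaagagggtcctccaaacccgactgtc
The capitals began 47 bases before the start in Uqcc2, 26 in Coa5, 112 in Ndufaf4 and 224 in Ndufaf2. All 4 genes are among those lower in fasted than in fed muscle of both genotypes relative to the median gene, with values given below. Members with values below were mostly picked by their fasting change, so this does not link the letters to fasting. Ttc19 and Sdhaf4 hold NRF1 letters too. With fasting, Ttc19 passed in neither genotype and Sdhaf4 in MKO only.
A few facts of the whole series bear on these genes. Transcripts of the mitochondrial genome took 68.6% ± 1.11 of all TPM in fed MKO, against 74.5% ± 0.322 in fed WT muscle, and 65.8% ± 2.64 in fasted MKO, against 74.7% ± 4.55 in fasted WT muscle (SD, n = 5 for MKO and 4 for WT). The median gene of a library differed as well: on the log2 scale it lay 0.27 higher in fed MKO than in fed WT and 0.32 higher in fasted MKO than in fasted WT libraries, whereas fasting shifted it by 0.05 in MKO and 0.00 in WT. The part of the mitochondrial share in this shift was not tested. Changes are given as deposited and relative to the median gene of each library. Read depth cannot be had from TPM, and 10729 to 11958 genes reached 0.5 TPM in a library. Ppargc1b read from 1.76 to 2.35 TPM in fed MKO, against 1.45 to 2.05 TPM in fed WT, and from 0.422 to 1.11 TPM in fasted MKO, against 0.726 to 1.47 TPM in fasted WT. Gene-level TPM also count the exons that the deletion leaves, so that these levels do not check the labels. WT fasted replicate 4 stood apart: its median gene lay at 1.54 on the log2 scale and its mitochondrial share was 81.3%, the highest of the 4 fasted WT libraries. The 9 markers of muscle fibers, most of fast ones, were present in every library, with a summed level of 33300 TPM in WT fasted replicate 4 and up to 67500 TPM in the other fasted WT libraries.

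Levels of the members spanned a wide range, and most were modest. Over all 18 libraries, 2 members averaged under 1 TPM, 20 from 1 to 10 TPM, 19 from 10 to 50 TPM and 2 above 50 TPM, with a median of 9.92 TPM. Uqcc2, which with UQCC1 guides the newly made cytochrome b into complex III, was highest at 98.4 TPM, followed by Cox14 at 68.1 TPM. Lowest was Sco2, a copper chaperone of complex IV, with 0.168, 0.409, 0.284, 0.527 and 0.549 TPM in fasted MKO, against 0.511, 0.117, 0.218, 0.38 and 0 TPM in fed MKO muscle. In WT muscle Sco2 had 0.281, 0.727, 0.267 and 0.542 TPM after fasting, against 0.464, 0.325, 0.676 and 0.326 TPM in the fed state. The Sco2 groups overlapped in each comparison, and 1 library was listed at 0. Between libraries of 1 group the relative log2 levels of the members had a median SD of 0.16 in fasted MKO and 0.16 in fed MKO, and of 0.21 in fasted WT and 0.12 in fed WT muscle.
Without strand in the stated counting, reads of overlapping genes cannot be told apart. Other annotated genes overlapped 23 of the 43 members, 4 of them on the same strand (Acad9, Sco2, Cox16 and Cox17). Among the members with values below, Ndufaf2, Timmdc1, Sdhaf1, Lyrm7, Surf1, Cox11, Cox16 and Coa6 have such an overlap, and their levels are uncertain to that extent.

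The first question was how 24 h without food changed these transcripts. In each genotype more than 20 of the 43 factors were lower in fasted than in fed muscle relative to the median gene, and 20 were lower in both, with helpers of each of the 5 complexes among them. Relative to the median gene, 25 of 43 members were lower in fasted than in fed MKO muscle and 0 higher (limma, Benjamini-Hochberg adjusted p under 0.05 over 12111 genes). That is 58.1% of the members, while 22.7% of all tested genes were lower and 20.2% higher in this comparison. In WT muscle 24 of 43 members (55.8%) were lower and 1, Surf1, higher, while 24.6% of all tested genes were lower and 19.9% higher. With no adjustment of p, 27 were lower and 0 higher in MKO at under 0.05, and 28 were lower and 1 higher in WT. Of all 12111 tested genes, 3296 were lower and 2806 higher in MKO at that p, and 3519 and 2768 in WT. The median member changed by −0.28 in MKO and −0.37 in WT muscle on the log2 scale, and the median of all tested genes by −0.05 and −0.07. Because these are bulk samples, fewer cells of a type and less RNA per cell cannot be told apart.
The direction was the same as deposited, where the median gene hardly moved with fasting. There 17 members were lower and 0 higher in fasted than in fed MKO (15.8% of all tested genes lower, 18.1% higher; with no adjustment of p, 0 members higher and 23 lower under 0.05). At that unadjusted p, 2784 of all 12111 tested genes were higher and 2512 lower in MKO. In WT muscle 22 were lower and 1 higher (20.7% of all tested genes lower, 15.3% higher). Every call as deposited, 17 lower in MKO, and 22 lower and 1 higher in WT, was also made relative to the median gene. On that scale 20 members passed the test as lower in both genotypes, 5 in MKO alone, 4 in WT alone and 14 in neither. Both comparisons have their own control libraries. Passing in 1 genotype alone does not show a difference between the genotypes, which was tested as an interaction and is given below.

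**Figure D1:**
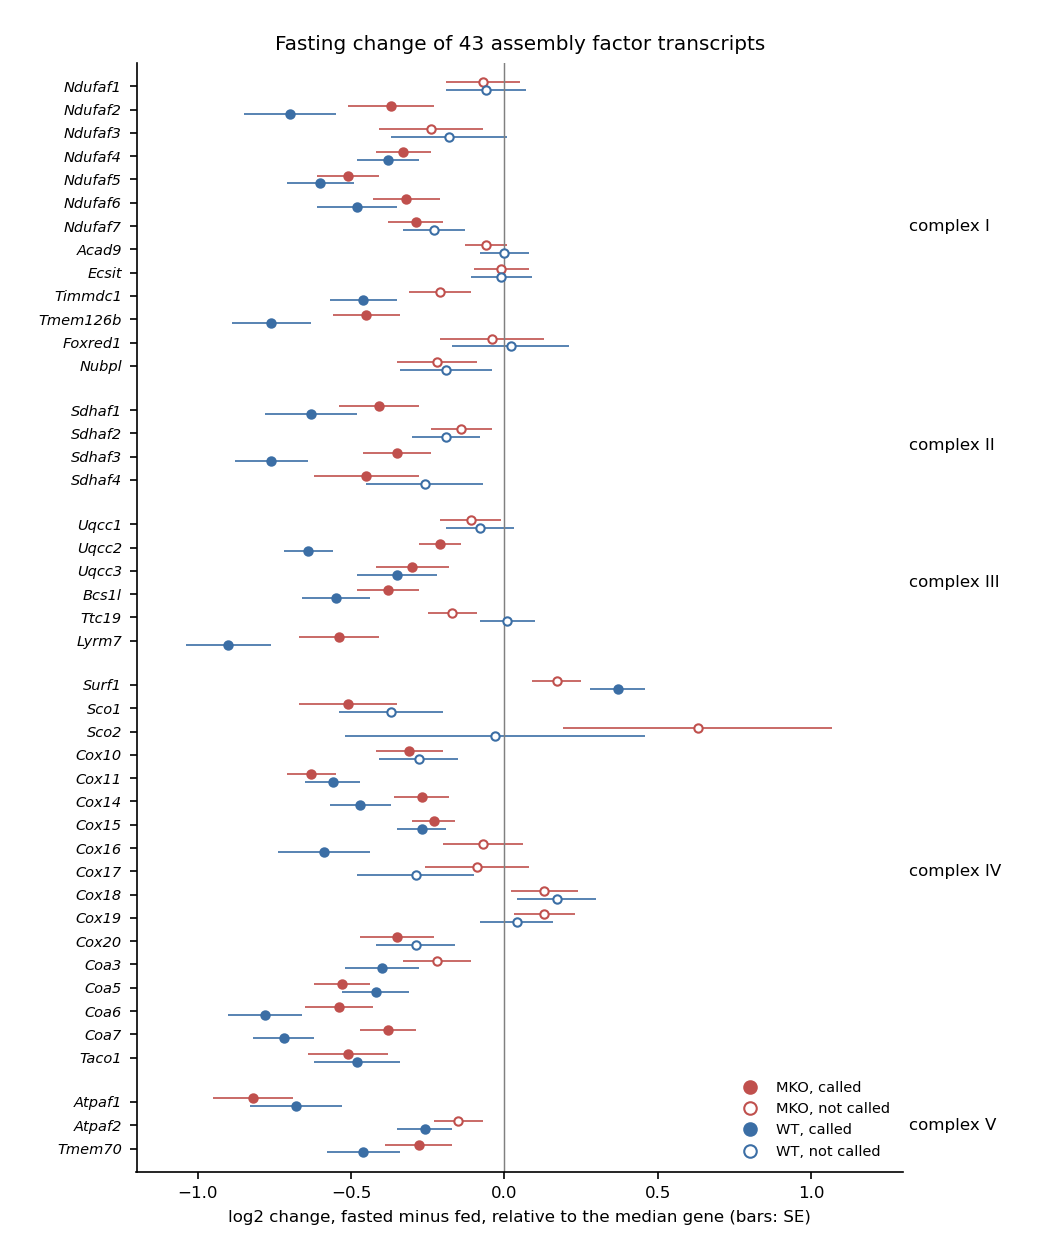
Log2 change of each of the 43 members between fasted and fed muscle, relative to the median gene, with MKO (red, upper) and WT (blue, lower) and the standard error as bars, grouped by complex. Filled points passed the test (25 in MKO; 24 lower and 1 higher in WT); nearly all lie left of 0, with Surf1 the filled point to the right.

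Among the 13 factors of complex I, 6 were lower after fasting in MKO (Ndufaf2, Ndufaf4, Ndufaf5, Ndufaf6, Ndufaf7 and Tmem126b) and 6 in WT muscle (Ndufaf2, Ndufaf4, Ndufaf5, Ndufaf6, Timmdc1 and Tmem126b), on the relative scale, with median changes of −0.24 and −0.23.
Ndufaf2 (ENSMUSG00000068184, chromosome 13, 108002715 to 108158623; coordinates here and below are of GRCm38) encodes a factor that holds a place in late complex I until the subunit NDUFA12 takes it. MKO muscle had 11.7, 13.2, 13.1, 12.9 and 12.7 TPM after fasting, against 15.1, 14.6, 18.4, 15.3 and 16.1 TPM in the fed state. WT muscle had 8.83, 7.19, 6.84 and 8.22 TPM after fasting, against 15.2, 14.9, 8.88 and 12.3 TPM when fed. In TPM every fasted library lay below every fed library of its genotype, in WT by only 0.05 TPM. Relative to the median gene, WT fasted replicate 4 (1.52) lay above WT fed replicate 3 (1.315). The relative change was −0.37 ± 0.14 in MKO (log2 ± SE; limma, adjusted p = 0.0359) and −0.70 ± 0.15 in WT (limma, adjusted p = 0.00123). The MKO call was lost without MKO fed replicate 1 or 3, without MKO fasted replicate 1, 2 or 5, and with no filter on low values (limma, adjusted p = 0.392), and as deposited it missed the threshold (limma, adjusted p = 0.0521).
Tmem126b (ENSMUSG00000030614, chromosome 7, 90467438 to 90476001) encodes a membrane protein of the NDUFAF1 group. The MKO libraries held 4.43, 4.08, 4.88, 4.54 and 5.26 TPM after fasting, against 6.07, 5.58, 6.85, 6.14 and 6.03 TPM in the fed state. WT muscle had 4.27, 2.94, 3.19 and 3.55 TPM after fasting, against 6.36, 5.6, 6.11 and 5.58 TPM when fed. Fasted and fed libraries did not overlap in either genotype, and the fasted WT libraries included the lowest values of all. Tmem126b changed by −0.45 ± 0.11 in MKO (limma, adjusted p = 0.00393) and by −0.76 ± 0.13 in WT (limma, adjusted p = 0.000111).
Ndufaf5 (ENSMUSG00000027384, chromosome 2, 140170649 to 140203689) encodes the enzyme that hydroxylates an arginine of the subunit NDUFS7. In MKO muscle it had 11.9, 13, 14.4, 13.5 and 13 TPM after fasting, against 17.9, 17.6, 18.9, 18.6 and 17.3 TPM in the fed state. WT muscle had 11.4, 8.07, 11.6 and 8.74 TPM after fasting, against 15, 15.5, 13.3 and 16.1 TPM when fed. All fasted libraries again lay below all fed libraries of the same genotype. The changes were −0.51 ± 0.10 in MKO (limma, adjusted p = 0.000555) and −0.60 ± 0.11 in WT (limma, adjusted p = 0.000305).
Ndufaf4 (ENSMUSG00000028261, chromosome 4, 24898083 to 24905001), the partner of NDUFAF3, moved less. MKO muscle had 14.4, 13.9, 15.8, 15.9 and 15.8 TPM after fasting, against 17.8, 17.1, 20.8, 17.2 and 18.8 TPM in the fed state. WT muscle had 16.5, 16.2, 13.5 and 13.9 TPM after fasting, against 18.5, 21.1, 18.6 and 20.1 TPM when fed. The groups did not overlap. Relative changes were −0.33 ± 0.09 in MKO (limma, adjusted p = 0.00917) and −0.38 ± 0.10 in WT (limma, adjusted p = 0.00613).
Timmdc1 (ENSMUSG00000002846, chromosome 16, 38498347 to 38522663) encodes a membrane protein of the same early intermediate as the NDUFAF1 group. The MKO libraries held 14.6, 15.4, 13.6, 12.7 and 15.7 TPM after fasting, against 16.7, 13.6, 18, 15 and 17.2 TPM in the fed state. WT muscle had 13.5, 10.1, 12.2 and 12.1 TPM after fasting, against 17.5, 16.2, 16.3 and 15.5 TPM when fed. The MKO groups overlapped and the WT groups did not. Its change was −0.21 ± 0.10 in MKO, which missed the threshold (limma, adjusted p = 0.088), and −0.46 ± 0.11 in WT (limma, adjusted p = 0.00218).
The other partners of TMEM126B showed no change that passed the test. Ndufaf1, for the founding member of that group, averaged 18.4 ± 0.93 TPM in fasted MKO and 18.7 ± 2.94 TPM in fed MKO (SD, n = 5 each), and 17.2 ± 1.58 TPM in fasted WT and 17.9 ± 2.17 TPM in fed WT muscle (SD, n = 4 each). Acad9, an acyl-CoA dehydrogenase relative that works in assembly, changed by −0.06 in MKO and 0.00 in WT. Ecsit, the adaptor between them, changed by −0.01 in each genotype. Foxred1 and Nubpl, whose product brings iron-sulfur clusters to complex I, had low levels, from 0.985 ± 0.12 TPM for Nubpl and 1.07 ± 0.13 TPM for Foxred1 in fasted MKO (SD, n = 5), and changes between −0.22 and 0.02.

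Of the 4 factors of complex II, 3 were lower in fasted MKO (Sdhaf1, Sdhaf3 and Sdhaf4) and 2 in fasted WT muscle (Sdhaf1 and Sdhaf3), with median changes of −0.38 and −0.44.
Sdhaf3 (ENSMUSG00000042505, chromosome 6, 6956004 to 7042979) and Sdhaf1 (ENSMUSG00000074211, chromosome 7, 30321406 to 30323895) encode the helpers that protect the iron-sulfur subunit SDHB while its clusters are put in. Sdhaf3 had 3.97, 3.47, 4.27, 4.17 and 4.12 TPM in fasted MKO, against 5.6, 4.95, 5.1, 4.07 and 4.96 TPM in fed MKO muscle. In WT muscle it had 2.9, 2.63, 2.93 and 2.31 TPM after fasting, against 4.99, 4.98, 3.91 and 4.62 TPM in the fed state. The WT groups were apart by 0.98 TPM and the MKO groups overlapped through MKO fed replicate 4. Sdhaf3 changed by −0.35 ± 0.11 in MKO (limma, adjusted p = 0.0131) and by −0.76 ± 0.12 in WT (limma, adjusted p = 5e-05).
Sdhaf1 had 3.97, 3.57, 2.82, 3.97 and 4.28 TPM in fasted MKO, against 4.19, 4.85, 5.61, 4.25 and 5.05 TPM in fed MKO. Its WT levels were 2.79, 2.79, 2.2 and 2.74 TPM after fasting, against 3.93, 3.51, 4.87 and 4.19 TPM in the fed state. In MKO 4 of 5 fasted libraries lay below all fed ones, and in WT 4 of 4 did. The changes were −0.41 ± 0.13 in MKO (limma, adjusted p = 0.0162) and −0.63 ± 0.15 in WT (limma, adjusted p = 0.0019). Sdhaf2, needed to attach flavin to SDHA, changed by −0.14 in MKO and −0.19 in WT without passing the test.

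For complex III, 4 of 6 factors were lower after fasting in each genotype (Uqcc2, Uqcc3, Bcs1l and Lyrm7), and the list's median change was −0.25 in MKO and −0.45 in WT muscle.
Lyrm7 (ENSMUSG00000020268, chromosome 11, 54826866 to 54860916) encodes the chaperone that holds the Rieske protein in the matrix until BCS1L moves it across the membrane. In MKO muscle it had 2.51, 2.26, 1.65, 1.77 and 1.59 TPM after fasting, against 3.02, 2.34, 2.91, 2.49 and 2.99 TPM in the fed state. WT muscle had 1.67, 1.56, 1.53 and 1.71 TPM after fasting, against 3.25, 3.36, 2.9 and 2.87 TPM when fed. All fasted WT libraries were below all fed ones, and in MKO 4 of 5 were, the exception being replicate 1 at 2.51 TPM. Lyrm7 had the lowest ratio of all members in WT, 0.54-fold of the fed level on the log2(TPM + 0.1) scale. Its log2 changes were −0.54 ± 0.13 in MKO (limma, adjusted p = 0.00214) and −0.90 ± 0.14 in WT (limma, adjusted p = 5.37e-05). Bcs1l, its partner, changed by −0.38 ± 0.10 in MKO (limma, adjusted p = 0.00429) and by −0.55 ± 0.11 in WT (limma, adjusted p = 0.000444).
Uqcc2 (ENSMUSG00000024208, chromosome 17, 27122663 to 27133916), the most abundant member, showed the smallest adjusted p of any member with fasting in WT on the relative scale, while Coa7 did as deposited. MKO muscle had 102, 112, 102, 96.6 and 101 TPM after fasting, against 121, 116, 118, 109 and 107 TPM in the fed state. WT muscle had 80.2, 63, 71.4 and 55.8 TPM after fasting, against 102, 109, 104 and 101 TPM when fed. The fasted WT libraries lay far below the fed ones, with a gap of 20.8 TPM, and the MKO groups overlapped through 1 library. The WT change was −0.64 ± 0.08 (limma, adjusted p = 3.89e-06) and the MKO change −0.21 ± 0.07 (limma, adjusted p = 0.023), the MKO call being lost as deposited (limma, adjusted p = 0.184), with no filter (limma, adjusted p = 0.924), and without MKO fed replicate 1, 2 or 3. Uqcc1, for its partner in the same step, changed by −0.11 in MKO and −0.08 in WT and passed no test. Ttc19, whose product clears fragments of the Rieske protein, changed by −0.17 in MKO and 0.01 in WT and passed none with fasting either.

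Complex IV has the most helpers, and its 17 transcripts were the most divided. In MKO muscle 10 were lower after fasting (Sco1, Cox10, Cox11, Cox14, Cox15, Cox20, Coa5, Coa6, Coa7 and Taco1), with a median change of −0.27. In WT muscle 9 were lower (Cox11, Cox14, Cox15, Cox16, Coa3, Coa5, Coa6, Coa7 and Taco1) and Surf1 was higher, with a median of −0.37.
Cox11 (ENSMUSG00000020544, chromosome 11, 90638173 to 90644931) encodes the factor that places copper in the subunit COX1. The MKO libraries held 8.16, 8.28, 8.13, 8.22 and 7.05 TPM after fasting, against 12.4, 11, 13.3, 10.5 and 12.6 TPM in the fed state. WT muscle had 6.54, 6.71, 6.85 and 5.53 TPM after fasting, against 10.3, 9.66, 9.45 and 8.42 TPM when fed. No fasted library reached a fed library of its genotype. Cox11 changed by −0.63 ± 0.08 in MKO, the smallest adjusted p among members there on the relative scale (limma, adjusted p = 1.28e-05; as deposited that of Atpaf1 was smaller), and by −0.56 ± 0.09 in WT (limma, adjusted p = 0.000114).
Coa6 (ENSMUSG00000051671, chromosome 8, 126422515 to 126425433) encodes a small protein of the copper route to the subunit COX2. In MKO muscle it had 10.1, 12.9, 8.8, 9.71 and 9.29 TPM after fasting, against 13, 13.6, 16.7, 13.2 and 14.6 TPM in the fed state. WT muscle had 7.58, 7.49, 8.7 and 4.94 TPM after fasting, against 10.7, 14.3, 10.9 and 12.9 TPM when fed. Fasted and fed libraries were separate in both genotypes, in MKO by only 0.1 TPM. The changes were −0.54 ± 0.11 in MKO (limma, adjusted p = 0.000536) and −0.78 ± 0.12 in WT (limma, adjusted p = 4.68e-05).
Coa7 (ENSMUSG00000048351, chromosome 4, 108328140 to 108341544) encodes a factor of the space between the membranes. MKO muscle had 4.21, 4.01, 4.04, 4.36 and 3.84 TPM after fasting, against 5.57, 4.85, 5.49, 4.64 and 5.22 TPM in the fed state. WT muscle had 3.06, 2.97, 3.05 and 2.59 TPM after fasting, against 4.16, 5.19, 4.82 and 5.26 TPM when fed. The fasted libraries were the lower ones throughout, without overlap. Coa7 changed by −0.38 ± 0.09 in MKO (limma, adjusted p = 0.00304) and by −0.72 ± 0.10 in WT (limma, adjusted p = 2.29e-05).
Coa5 (ENSMUSG00000026112, chromosome 1, 37417084 to 37430103), another factor of complex IV, was the third most abundant member. The MKO libraries held 41.3, 31.6, 36, 35.3 and 37.2 TPM after fasting, against 51.1, 50.5, 52.4, 45.5 and 52.7 TPM in the fed state. WT muscle had 39.9, 35.6, 39.1 and 37 TPM after fasting, against 55.8, 43.3, 51.8 and 51.4 TPM when fed. Its fasted and fed libraries did not overlap in TPM. Relative to the median gene, WT fasted replicate 4 (3.677) lay above WT fed replicate 2 (3.629). The changes were −0.53 ± 0.09 in MKO (limma, adjusted p = 0.000205) and −0.42 ± 0.11 in WT (limma, adjusted p = 0.0036).
Cox16 (ENSMUSG00000091803, chromosome 12, 81359026 to 81485127), for a factor that acts on COX2, was lower in WT. In MKO muscle it had 6.5, 7.43, 7.49, 9.22 and 10.1 TPM after fasting, against 8.72, 6.72, 9.96, 8.72 and 7.03 TPM in the fed state. WT muscle had 5.62, 5.53, 6.19 and 4.07 TPM after fasting, against 7.93, 8.37, 7.42 and 8.33 TPM when fed. The MKO groups covered the same range, whereas each fasted WT library lay below each fed WT library. Its change was −0.07 ± 0.13 in MKO, which did not pass (limma, adjusted p = 0.697), and −0.59 ± 0.15 in WT (limma, adjusted p = 0.00336). Cox16 shares its locus with 5 other annotated genes, 4 on its strand.
Surf1 (ENSMUSG00000015790, chromosome 2, 26913381 to 26916530), for a protein of heme and COX1 maturation whose loss causes Leigh syndrome in people, was the 1 member called higher after fasting, and was singled out after its values were seen. MKO muscle had 9.14, 10.7, 8.76, 7.95 and 9.66 TPM after fasting, against 7.19, 7.34, 7.84, 8.81 and 8.35 TPM in the fed state. WT muscle had 9.77, 9.12, 7.0 and 5.88 TPM after fasting, against 6.4, 5.3, 6.61 and 5.67 TPM when fed. In each genotype 3 fasted libraries exceeded every fed one and the groups overlapped. It changed by 0.17 ± 0.08 in MKO (limma, adjusted p = 0.111) and by 0.37 ± 0.09 in WT (limma, adjusted p = 0.00279). As deposited the WT change was 0.38 ± 0.14 (limma, adjusted p = 0.041), and that call was lost without WT fed replicate 2 or 4 or WT fasted replicate 1 or 2, with no filter (limma, adjusted p = 0.0667) and in a fit of these 2 groups only (limma, adjusted p = 0.138).
Several other complex IV factors passed no fasting test. Cox17 and Cox19, which handle copper between the membranes, changed by −0.09 and 0.13 in MKO and by −0.29 and 0.04 in WT. Cox18, a translocase for COX2, changed by 0.13 in MKO and 0.17 in WT. By contrast, Taco1, the translational activator of COX1, passed in both genotypes. It fell by 0.51 in MKO (limma, adjusted p = 0.00303) and by 0.48 in WT (limma, adjusted p = 0.00964).

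Of the complex V helpers, Atpaf1 and Tmem70 were lower after fasting in MKO, and these with Atpaf2 in WT muscle.
Atpaf1 (ENSMUSG00000028710, chromosome 4, 115784812 to 115818828) encodes the chaperone of the catalytic β subunit. The MKO libraries held 14.1, 12.4, 16.2, 14.8 and 15.7 TPM after fasting, against 24.8, 23.3, 27.3, 23.6 and 25.4 TPM in the fed state. WT muscle had 12, 12.6, 10.5 and 14.7 TPM after fasting, against 22.5, 17.9, 18.4 and 20.5 TPM when fed. Every fasted library lay below every fed library of its genotype by 3.2 TPM or more. Relative to the median gene the WT groups nearly met, with WT fasted replicate 4 at 2.352 and WT fed replicate 2 at 2.358. Atpaf1 changed by −0.82 ± 0.13 in MKO (0.57-fold; limma, adjusted p = 0.0001), the lowest ratio among members there, and by −0.68 ± 0.15 in WT (limma, adjusted p = 0.00135). Tmem70, needed for the ring of c subunits, changed by −0.28 ± 0.11 in MKO (limma, adjusted p = 0.0367) and by −0.46 ± 0.12 in WT (limma, adjusted p = 0.00382).

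**Figure D2:**
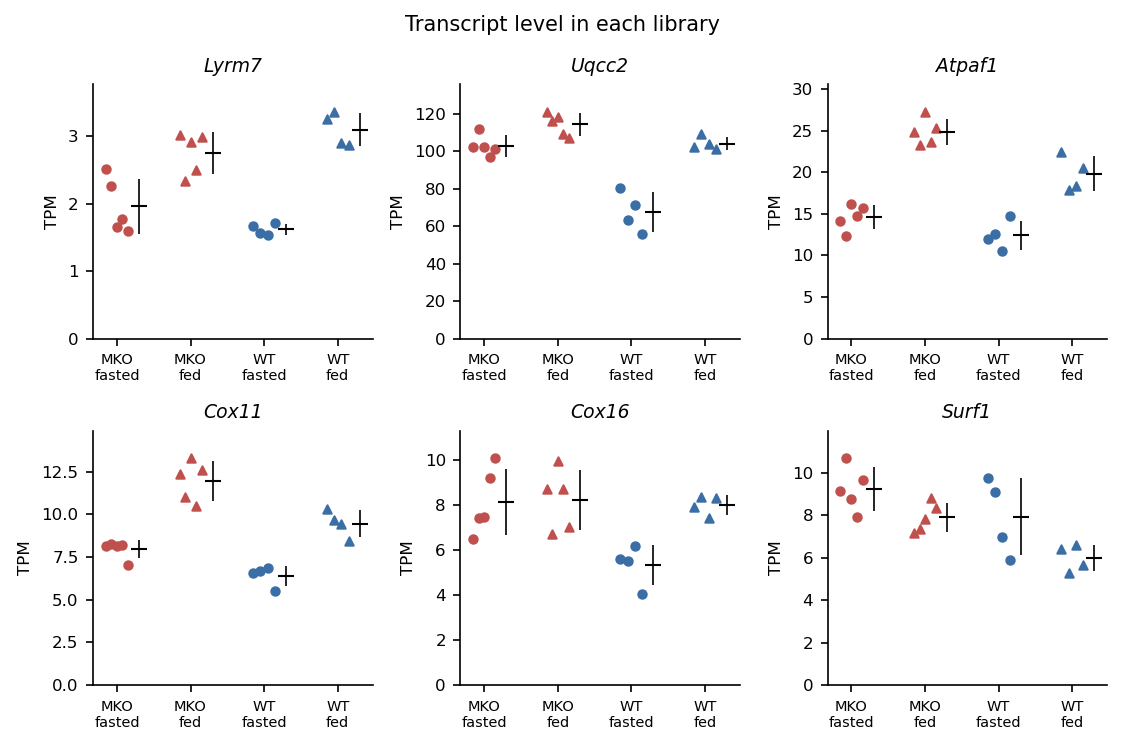
TPM of 6 members in each library (points; circles fasted, triangles fed; MKO red, WT blue), with the mean and SD of each group as black bars. The fasted groups of Atpaf1 and Cox11 lie below their fed groups in both genotypes. Those of Lyrm7 do so in WT, while in MKO fasted replicate 1 (2.51 TPM) lies within the fed range. Uqcc2 and Cox16 lie clearly lower in fasted than in fed WT, and Surf1 lies higher in fasted WT than in fed WT.

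Single libraries weighed on these counts. On the relative scale, WT fasted replicate 4 exceeded the average of the remaining 3 libraries of its group in 38 of 43 members, by a median of 0.30, and each of these libraries in 33. Without it, 28 members were lower and 1 higher in fasted than in fed WT muscle. MKO fed replicate 3 was high for many members, and without it 16 members were lower in fasted than in fed MKO relative to the median gene and 10 as deposited. Without MKO fasted replicate 2 the count as deposited was also 10. The shares of all tested genes without these libraries are not given, so these shifts cannot be read as particular to the members. Markers of cell types moved with fasting too, given here relative to the median gene. In fasted MKO 3 of 6 fibroblast, 2 of 6 endothelial, 3 of 5 smooth muscle, 1 of 5 adipocyte and 1 of 5 leukocyte markers were lower than in fed MKO, 1 of 3 satellite cell markers was lower and 1 higher, and 3 of 9 muscle fiber markers were higher. In fasted WT 2 of 6 fibroblast, 2 of 6 endothelial, 2 of 5 adipocyte, 1 of 3 satellite cell and 2 of 9 muscle fiber markers were lower than in fed WT, while 2 fibroblast markers and 1 each of the endothelial, smooth muscle, erythroid and Schwann cell markers were higher. The summed level of the muscle fiber markers ran from 74300 to 97500 TPM in fasted MKO, against 63400 to 74300 TPM in fed MKO, and from 33300 to 67500 TPM in fasted WT, against 57700 to 61700 TPM in fed WT. The summed fibroblast level ran from 1030 to 1310 TPM in fasted MKO, against 821 to 1190 TPM in fed MKO, and from 652 to 1050 TPM in fasted WT, against 522 to 882 TPM in fed WT. The part of these cells in the result was not tested. Of the 9 slow fiber genes, 0 passed in either genotype. Their summed level ran from 119 to 430 TPM in fasted MKO, against 188 to 554 TPM in fed MKO. In WT it ran from 76.6 to 671 TPM after fasting, against 168 to 384 TPM when fed. The 671 TPM was that of WT fasted replicate 4, and the other fasted WT libraries reached up to 384 TPM. The part of slow fibers in the result was not tested.

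**Figure D3:**
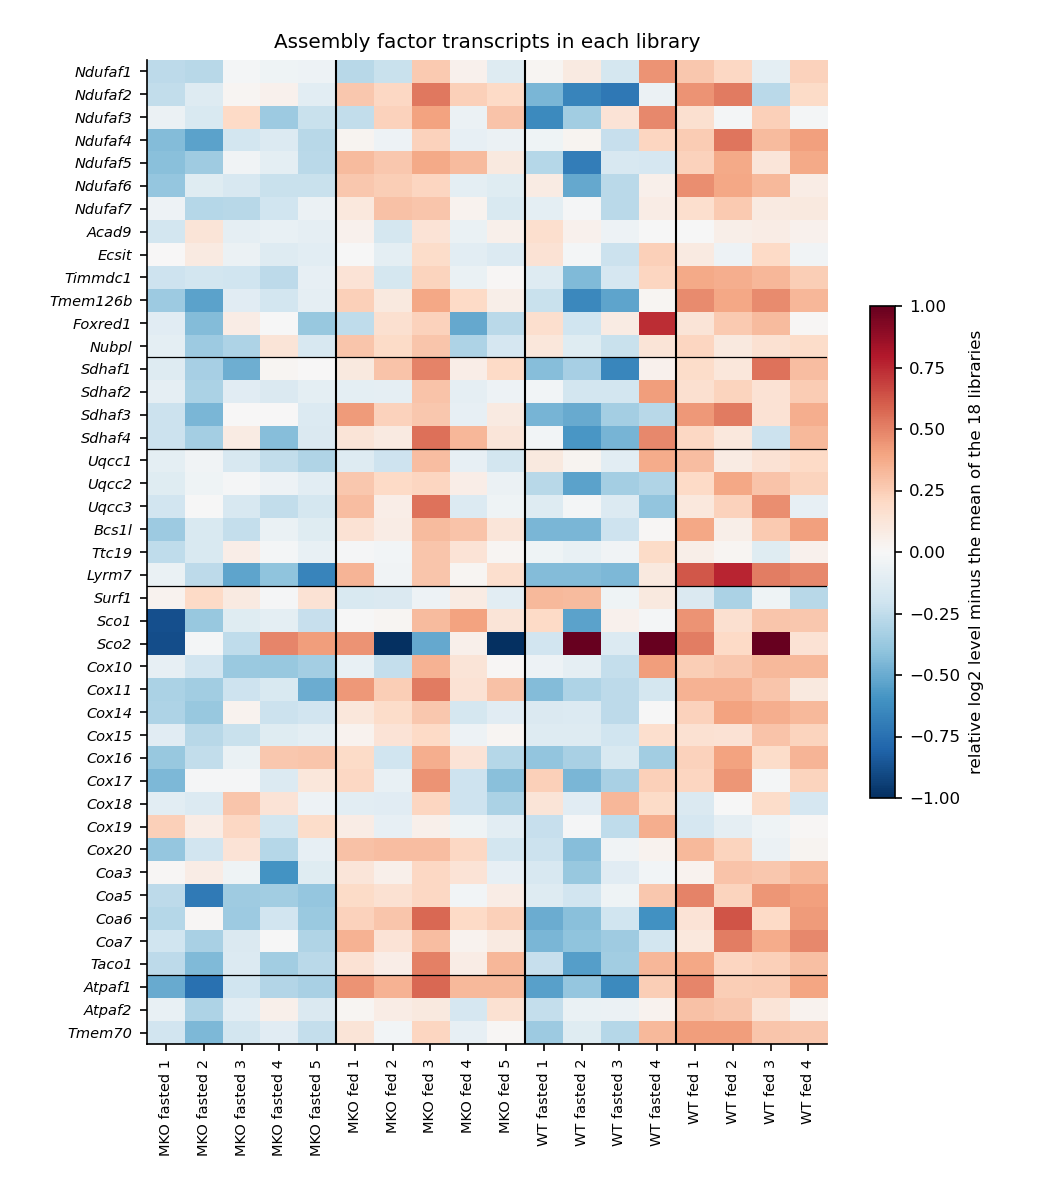
Relative log2 level of each member (down, grouped by complex) in each of the 18 libraries (across), as the difference from the member's mean over libraries, with values past either end of the scale drawn in the end colors. Fasted libraries are mostly blue (lower) and fed libraries mostly red, and WT fasted replicate 4 and MKO fed replicate 3 are redder than the rest of their groups.

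The next question was whether loss of PGC-1β changed these transcripts. Few members differed between MKO and WT muscle once the shift of the median gene was taken off, in either feeding state. In fed muscle, 1 member was higher in MKO as deposited, Ttc19, and 0 were lower, against 4.87% of all tested genes higher (with no adjustment of p, 10 higher and 0 lower under 0.05). Of all 12111 tested genes, 4340 were higher and 104 lower at that unadjusted p. As deposited 2 of 6 endothelial and 2 of 5 smooth muscle markers were also higher in fed MKO than in fed WT, and relative to the median gene 0 markers passed. Ttc19 averaged 12.8 ± 1.20 TPM in fed MKO (SD, n = 5) and 10 ± 0.70 TPM in fed WT (SD, n = 4), a change of 0.35 ± 0.09 (limma, adjusted p = 0.0383) that was 0.08 ± 0.08 relative to the median gene (limma, adjusted p = 0.762). On the relative scale, 0 of 43 members passed in either direction, where 0.289% of all tested genes were higher and 0.809% lower, and 0 higher and 9 lower had a p under 0.05 before adjustment. Among these 9 members were Ndufaf4 at −0.37, Lyrm7 at −0.44 and Timmdc1 at −0.30 (limma, adjusted p = 0.0961, 0.139 and 0.206). Of all 12111 tested genes, 437 were higher and 1048 lower before adjustment on this scale. The median member lay at −0.13 there, with 34 of 43 below 0, and the median of all tested genes at −0.02.
The count as deposited in fed muscle depended on single libraries: it was 8 without WT fasted replicate 4, 3 without WT fed replicate 1 or WT fasted replicate 1, 2 without MKO fasted replicate 4, and 0 without MKO fed replicate 3, 4 or 5, MKO fasted replicate 5 or WT fed replicate 2, 3 or 4. The share of all tested genes without each library is not given.
In fasted muscle, 18 of 43 members (41.9%) were higher in MKO as deposited and 0 lower, which stands beside 38.9% of all tested genes higher. Before adjustment, 24 were higher and 0 lower with a p under 0.05, where 6054 of all 12111 tested genes were higher and 117 lower. Of the markers, 6 of 9 muscle fiber, 1 of 6 endothelial and 1 of 3 satellite cell markers were higher in fasted MKO than in fasted WT as deposited and 0 of all lists lower, and the summed muscle fiber level ran from 74300 to 97500 TPM in fasted MKO, against 33300 to 67500 TPM in fasted WT. Their part in the 18 calls was not tested. Relative to the median gene, 0 markers passed in this comparison. Ndufaf2, Uqcc2, Cox16, Sdhaf3 and Coa6 had the highest of these changes, from 0.51 to 0.71. Relative to the median gene, 1 member was higher (2.64% of all tested genes) and 1 lower (2.54%), and the median member changed by −0.07.

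**Figure D4:**
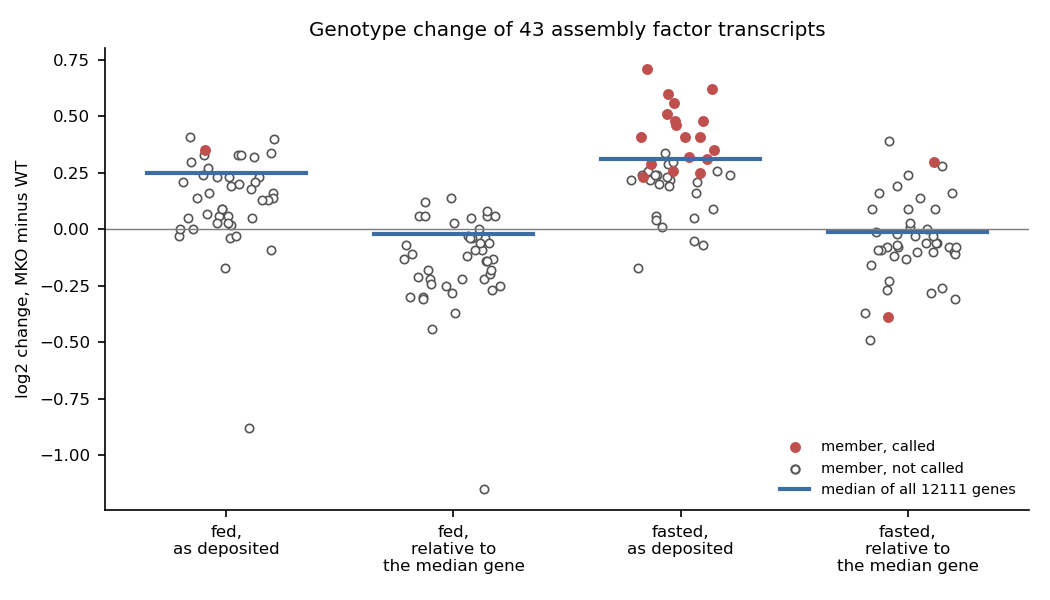
Log2 change of each member between MKO and WT muscle, fed (left) and fasted (right), as deposited and relative to the median gene, with the median of all 12111 tested genes as a blue bar and called members in red. As deposited the members lie mostly below the raised median of all genes in fed muscle (0.25) and on both sides of it in fasted muscle (0.31), and relative to the median gene they spread around 0 or somewhat below it.

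Uqcc2 was the member called on both scales. As the values above show, its 5 fasted MKO libraries (96.6 to 112 TPM) all lay above the 4 fasted WT libraries (55.8 to 80.2 TPM). The change was 0.62 ± 0.09 as deposited (limma, adjusted p = 0.000259) and 0.30 ± 0.07 relative to the median gene (limma, adjusted p = 0.0268). In fed muscle it was −0.13 ± 0.07 on the relative scale (limma, adjusted p = 0.487). The relative call in fasted muscle was lost without WT fasted replicate 2 or MKO fasted replicate 3 or 4, with no filter (limma, adjusted p = 0.0507) and in a fit of these 2 groups only (limma, adjusted p = 0.0791).
Coa5 went the other way on the relative scale. Its TPM overlapped between fasted MKO and fasted WT, with a change of −0.07 ± 0.09 as deposited (limma, adjusted p = 0.562), and relative to the median gene it changed by −0.39 ± 0.10 (limma, adjusted p = 0.0306), with 5 of 5 fasted MKO libraries below all fasted WT libraries. This call was lost without WT fasted replicate 3 or 4 or MKO fasted replicate 2 or 5, with no filter (limma, adjusted p = 0.0508) and in a fit of these 2 groups only (limma, adjusted p = 0.122). Without WT fasted replicate 4 the relative counts were 2 higher and 0 lower, and the count as deposited was 12. Shares of all tested genes without that library are not given.
The last comparison asked whether the fasting change differed between the genotypes. As deposited and relative to the median gene, 0 of 43 members passed the interaction test (limma), against 0.033% and 0.116% of all tested genes. At an unadjusted p under 0.05, 6 and 4 members had a less negative change in MKO than in WT and 0 the opposite. Of all 12111 tested genes, 866 and 884 had an interaction above 0 at that p, and 237 and 508 one below 0. The median interaction was 0.10 as deposited and 0.05 relative to the median gene, where all tested genes had 0.06 and 0.01. Uqcc2 had the smallest adjusted p, with an interaction of 0.43 ± 0.10 on the relative scale (limma, adjusted p = 0.121). Cox16 had 0.52 ± 0.20 (limma, adjusted p = 0.317) and Sdhaf3 0.42 ± 0.16 (limma, adjusted p = 0.317). On the relative scale the change was lower in MKO for 18 members and in WT for 25, against 5801 and 6310 of all 12111 tested genes. For 37 members it was below 0 in both genotypes. Of all tested genes, 55.3% lay below 0 in MKO and 55.9% in WT, and the share below 0 in both was not counted.

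The factors were set beside the parts they assemble. On the relative scale, 25 of 43 factors and 4 of 78 nuclear subunits were lower in fasted than in fed MKO muscle, with median changes of −0.28 and −0.14. These were 58.1% and 5.13% of the lists, beside 22.7% of all tested genes. In WT muscle 24 of 43 factors and 7 of 78 subunits were lower, 1 factor and 2 subunits higher, and the medians were −0.37 and −0.13. Lower were 55.8% of the factors and 8.97% of the subunits, beside 24.6% of all tested genes, of which 19.9% were higher. Between genotypes the counts stood the other way round. In fed muscle 0 factors and 9 subunits were lower in MKO than in WT, with medians of −0.13 and −0.34, and 77 of the 78 subunits lay below 0. The 9 were 11.5% of the subunits, beside 0.809% of all tested genes, of which 54.8% lay below 0. In fasted muscle 1 factor and 28 subunits were lower in MKO than in WT, with medians of −0.07 and −0.37. The 28 were 35.9% of the subunits, beside 2.54% of all tested genes. As deposited, 2 and 5 subunits were lower in MKO in fed and fasted muscle and 0 and 5 higher. Of all tested genes, 0.182% and 0.528% were lower there and 4.87% and 38.9% higher. The difference between the lists itself was not tested.
By complex, the subunits with the largest median change between fasted MKO and fasted WT were those of complex III at −0.52 (5 of 9 lower) and complex II at −0.51 (3 of 4 lower), while the factors of these complexes had medians of −0.03 and 0.05. Subunits of complex I had −0.31 (11 of 36 lower) and its factors −0.08 (0 of 13). Subunits of complex IV had −0.39 (5 of 13 lower) and those of complex V −0.38 (4 of 16). The 13 protein genes of the mitochondrial genome had −0.52, with 9 lower. In this comparison 2.54% of all tested genes were lower, and their median was −0.01.
Of 25 further assembly factors from a list outside the 43, 17 were tested. Relative to the median gene 1 was lower and 1 higher in fasted than in fed MKO, and 8 were lower and 1 higher in fasted than in fed WT muscle, with medians of −0.16 and −0.22. In MKO this was 5.88% lower and 5.88% higher, beside 22.7% and 20.2% of all tested genes. Among the 43 members 58.1% were lower there, so this list did not share their calls in MKO. In WT 47.1% were lower and 5.88% higher, beside 24.6% and 19.9% of all tested genes. Between genotypes 0 passed in fed muscle and 1, higher in MKO, in fasted muscle (5.88%, beside 2.64% of all tested genes).

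**Figure D5:**
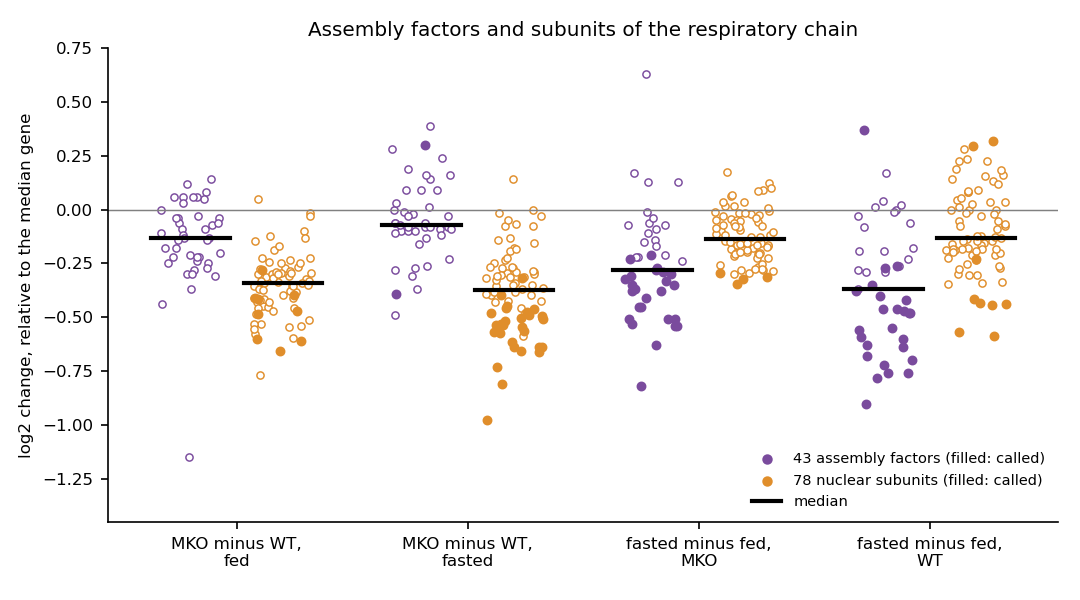
Log2 changes relative to the median gene in 4 comparisons, for the 43 assembly factors (purple) and the 78 nuclear subunits of complexes I to V (orange), with filled points for called genes and black bars for medians. Subunits lie lower than factors in MKO against WT (medians of −0.34 and −0.37, against −0.13 and −0.07), and factors lie lower than subunits in fasted against fed muscle (−0.28 and −0.37, against −0.14 and −0.13).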

How the data were processed

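Poly(A) RNA of 18 muscles was sequenced. The authors mapped single reads to mm10 (GRCm38) with the CLC Genomics Workbench and deposited TPM for 46983 genes, with version, annotation and settings not given in the sources used here. Columns with the authors' own fold changes and FDR p-values were not used. Labels name a SMARTER library kit, and the methods describe adapter ligation.
A minimum of 0.5 TPM in 4 or more of the 18 libraries left 12111 genes. Their log2(TPM + 0.1) values were fitted in limma 3.58.1 (R 4.3.3; two-sided tests, means of 4 groups, eBayes with trend, 14 residual and 5.38 prior degrees of freedom), as deposited and after subtraction of each library's median over the tested genes. Folds are on that scale and understate changes of low genes. Calls had a Benjamini-Hochberg adjusted p under 0.05 over all tested genes. The script was tested on simulated data. No 2 libraries held the same values (153 pairs).
The members and the other lists were chosen with earlier results of these data known. Values per library are given for members called on both scales (genotype first, then up to 12 by size of the fasting change) and for up to 3 members per comparison with the smallest adjusted p. Coordinates are of GENCODE and promoters of RefSeq. Protein sequences were not used here. Alternatives were other pseudocounts (1 and 0.01), no filter or 2 TPM, a replicate block, sample quality weights, fits of 2 groups, quantile normalization, TPM without mitochondrial genes, and leaving out each library.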

Additional observations from a re-analysis of the deposited data

Results flagged for a closer look

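In 64 sets of values (16 members in 4 groups), 2 had a library far from the others of its group by Dixon's criterion, which chance meets in about 1 in 20. Sdhaf1 had 2.20 TPM in WT fasted replicate 3, while the other fasted WT libraries had 2.74 to 2.79 TPM. Cox11 had 7.05 TPM in MKO fasted replicate 5, while the other fasted MKO libraries had 8.13 to 8.28 TPM. Both values lie on the side away from the fed group, and the fasting calls of both genes relative to the median gene held without these libraries.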

How the results depend on the processing

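Relative to the median gene, the fasting counts kept their size under most settings, and the genotype counts as deposited did not. Without a filter, where the median gene is taken over 21558 genes and lies at only 0.488 to 0.924 TPM, 7 members (2 higher, 5 lower) were called in fasted against fed MKO and 0 in fasted MKO against WT relative to the median gene. There the fasting calls of Ndufaf2, Ndufaf4, Tmem126b, Sdhaf1, Sdhaf3, Uqcc2, Lyrm7 and Coa7 in MKO (limma, adjusted p of 0.0612 for Lyrm7 to 0.924 for Uqcc2) and of Ndufaf4 in WT (0.142) were lost. As deposited, the 17 calls of fasted against fed MKO became 26 after quantile normalization and 27 in TPM without the mitochondrial genome. The 18 calls of fasted MKO against WT became 8 in a fit of these 2 groups only, 2 (1 higher, 1 lower) after quantile normalization and 3 (0 higher, 3 lower) without the mitochondrial genome. There Ndufaf5 (−0.04), Timmdc1 (−0.19), Tmem126b (−0.03) and Cox11 (−0.14) changed sign, as Timmdc1 (−0.05) and Cox11 (−0.02) did after quantile normalization. The 1 call of fed MKO against WT as deposited became 2 with a pseudocount of 1 or a filter of 2 TPM, 11 with sample quality weights, 8 with these 2 groups only, and 0 after quantile normalization or without the mitochondrial genome. Sample quality weights gave 1 interaction as deposited and 2 calls for fed MKO against WT relative to the median gene, and the 2-group fit gave 0 for fasted MKO against WT on that scale. Beyond what each setting does by its construction, the cause was not tested. For none of the settings in this section is the share of all tested genes given. These counts therefore do not set the members apart from other genes.
Leaving out 1 library at a time gave 0 to 8 calls for fed MKO against WT and 10 to 21 for fasted against fed MKO as deposited. Relative to the median gene it gave 0 to 1 for fed MKO against WT, 1 to 2 for fasted MKO against WT and 16 to 26 for fasted against fed MKO.
Replicate numbers share no stated origin: deviations of same-numbered libraries correlated from −0.142 to 0.152, and most libraries did not correlate best with their own number. With a replicate block, members called were 0 for fed and 15 for fasted MKO against WT and 14 and 23 for fasting in MKO and WT as deposited, and 0, 2, 22 and 24 relative to the median gene. Of the fasting calls given by library, the block ended that of Ndufaf2 in MKO relative to the median gene (limma, adjusted p = 0.0555) and that of Surf1 in WT as deposited (limma, adjusted p = 0.0533).
TPM hold no read counts, so counting error, which is greatest for low members such as Sco2, Nubpl and Foxred1, cannot be given.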

Other observations

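Many assembly factor genes share their start region with a gene read the other way. With a window chosen after the data were seen (a start at most 1000 bases upstream or 200 bases inside), 12 of 43 members (27.9%) have such a protein-coding neighbor, against 12% of 11497 tested protein-coding genes, and 10 of the 12 neighbors were tested. The neighbors did not move as 1 group with fasting. Stxbp4, whose product binds syntaxin 4, starts 89 bases from Cox11 and was lower too: it averaged 2.49 ± 0.31 TPM in fasted MKO and 6.32 ± 1.19 TPM in fed MKO (SD, n = 5 each), and 1.77 ± 0.63 TPM in fasted WT and 5.82 ± 0.73 TPM in fed WT muscle (SD, n = 4 each). Its relative log2 changes were −1.35 in MKO and −1.72 in WT (limma, adjusted p = 1.84e-06 and 3.9e-07).
Adprm, 76 bases from Sco1, went the other way. It averaged 6.36 ± 1.5 TPM in fasted MKO and 3.33 ± 0.51 TPM in fed MKO (SD, n = 5 each), and 4.73 ± 0.85 TPM in fasted WT and 2.70 ± 0.41 TPM in fed WT (SD, n = 4 each). Its relative changes were 0.84 in MKO and 0.77 in WT (limma, adjusted p = 6.38e-05 and 0.000365), where Sco1 had −0.51 and −0.37. Cebpz, 70 bases from Ndufaf7, was higher after fasting by 0.58 in MKO and 0.51 in WT (limma, adjusted p = 0.000181 and 0.00126), and Unc50, 36 bases from Coa5, by 0.28 and 0.67 (limma, adjusted p = 0.0252 and 8.41e-05). Surf2, whose start lies inside Surf1, changed by 0.22 in MKO and 0.26 in WT and did not pass the test.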
